A study of Mus musculus with 6 samples.

Results

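Genes of the bone morphogenetic protein (BMP), activin and transforming growth factor beta (TGF-beta) pathway were examined in cortex RNA from newborn Tle4-/- null mice and their wild-type littermates. The members were the rows of the deposited gene table whose symbol names a BMP, growth and differentiation factor (GDF), inhibin beta subunit, TGF-beta, one of their receptors, a Smad, an Id protein (Id1 to Id4), Noggin or Chordin. They numbered 53 of 23621 genes. There were 3 Tle4-/- and 3 wild-type libraries, each from cortex dissected at postnatal day 0, and all animals had a mixed background of C57BL/6J, 129S6 and CD1. The protein TLE4 is a Groucho-type transcriptional co-repressor found in deep-layer cortical neurons. The labels name no Cre driver or targeting design, and they do not tie libraries to litters or say whether animals were pooled, so p-values set the genotypes against the spread between these samples, which may be technical.

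Ligands of this family are secreted dimers that bring together type I and type II serine/threonine kinase receptors. The type II receptor phosphorylates the type I receptor, which in turn phosphorylates receptor-regulated Smads: Smad1, Smad5 and Smad9 for the BMP branch, and Smad2 and Smad3 for the activin and TGF-beta branch. These join Smad4 and enter the nucleus, where the BMP branch is known for switching on the Id genes, inhibitors of basic helix-loop-helix transcription factors. In the developing forebrain, BMPs are known as signals of the dorsal midline and the meninges, the membranes that cover the brain.

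The libraries held 18617408 to 21632607 counts. Tle4 had 69.3, 86.8 and 86.8 CPM (counts scaled to library size with trimmed-mean factors) in Tle4-/- cortex, against 198, 142 and 166 CPM in wild-type cortex. Each mutant library was below each wild-type library (log2 fold change -1.06, SE 0.14, edgeR adjusted p = 0.0377), and the count per gene does not say which part of Tle4 the remaining reads cover. Xist, made from the inactive X of females, had 3407 to 4124 CPM in Tle4-/- cortex and 0.494 to 1.99 CPM in wild-type cortex. The Y-linked Ddx3y had 0 to 0.104 CPM in Tle4-/- cortex, against 74.5, 84.9 and 0.107 CPM in wild-type replicates 1, 2 and 3. Wild-type replicate 3 thus had little of either gene, and they do not settle its sex. The Xist level split with genotype in all libraries, so sex and genotype cannot be told apart. Among 10 defining markers of cortical projection neurons, the summed level was 2464 to 2882 CPM in Tle4-/- cortex and 2604 to 3022 CPM in wild-type cortex, and all 10 passed the filter on low counts. The summed level of 15 markers of meninges was 241 to 492 CPM in Tle4-/- cortex, against 18.6 CPM in wild-type replicate 1 and up to 621 CPM in the other wild-type libraries. Wild-type replicate 1 therefore stood apart, and members whose log2 fold change moved by more than 0.2 without it, 11 of the 46 tested, are given with and without it.

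Of the 53 members, 46 passed the filter on low counts and were tested, and 0 of the 46 differed between the genotypes by edgeR's quasi-likelihood test with Benjamini-Hochberg adjustment over all 16274 genes tested. Over all genes, 18 were called, which is 0.111%, with 0.0492% higher and 0.0614% lower in the mutant. The DESeq2 Wald test and limma-voom also called 0 of the 46, where they called 0.356% and 0.0799% of all genes. Over the alternatives run, each library left out in turn included, the smallest adjusted p of a member was 0.443, by the DESeq2 Wald test. At an unadjusted p under 0.05 there was 1 member, the ligand Gdf10, which was lower in the mutant. That is 2.17% of the members tested, and the share over all genes was 3.45%, with 1.71% higher and 1.73% lower. Genotypes did not overlap in 3 of the 46, or 6.52%, all lower in the mutant (Gdf10, the receptor gene Acvr2b and the kinase gene Bmp2k), against 7.93% of all genes, with 4.18% higher and 3.75% lower.

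The 46 log2 fold changes, Tle4-/- over wild type, ran from -0.71 to 0.57 with a median of 0.02, and the median over all genes tested was -0.01. Of them, 25 were above 0 and 21 below, and 37 were smaller than 0.25 in size. The 95% interval of the fold change stayed within 2-fold in either direction for 34 of the 46, and within 1.5-fold for 19. For the others the interval reached beyond these bounds, which does not exclude a change of that size. The fit without wild-type replicate 1 gave a members' median of -0.09.

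**Figure D1:**
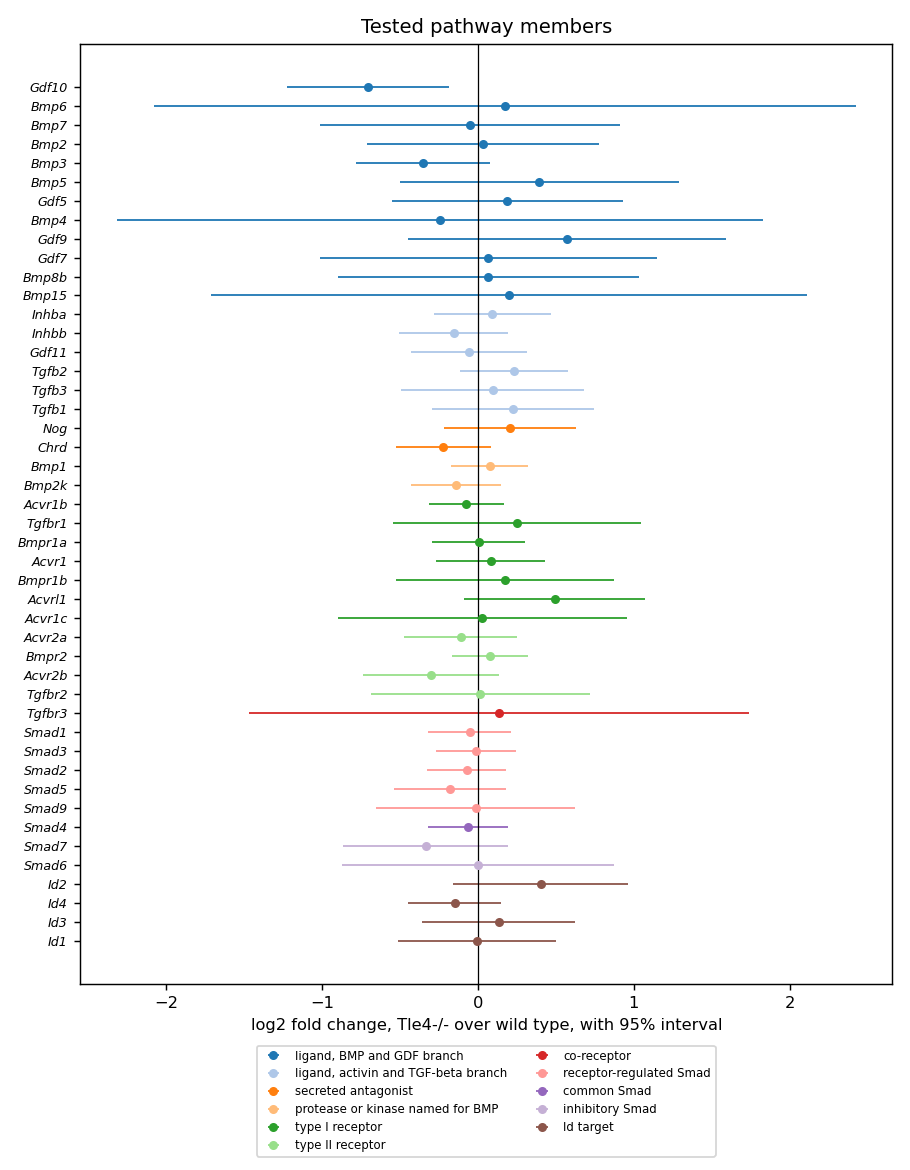
Log2 fold change, Tle4-/- over wild type, of the 46 tested members with 95% intervals from edgeR's quasi-likelihood fit (3 libraries a genotype), coloured by role and ordered within a role by mean FPKM. The interval of Gdf10 lies below 0, while those of Bmp4, Bmp6, Bmp15 and Tgfbr3 are the widest and those of most Smads and main receptors are narrow around 0.

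Among the ligands, levels were compared between genes as FPKM, the fragments scaled to gene length and library size that the authors deposited. The most abundant was Inhba, the beta A subunit of activin and inhibin, at 9.97, 7.84 and 7.44 FPKM in Tle4-/- cortex and 6.86, 7.78 and 9.29 FPKM in wild-type cortex. Inhbb, which encodes the beta B subunit, had 6.63, 6.85 and 5.47 FPKM in Tle4-/- cortex and 7.31, 6.00 and 7.97 FPKM in wild-type cortex. Gdf11, a ligand that acts through activin receptors and Smad2 and Smad3, had 4.62, 5.13 and 4.63 FPKM in Tle4-/- cortex and 3.90, 5.69 and 5.51 FPKM in wild-type cortex. For each of these the genotypes overlapped, and the log2 fold changes were 0.09 for Inhba (SE 0.17), -0.16 for Inhbb (SE 0.16) and -0.06 for Gdf11 (SE 0.17).

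Of the TGF-beta genes proper, Tgfb2 was the most abundant by mean FPKM, at 3.02, 2.80 and 2.40 FPKM in Tle4-/- cortex and 2.38, 2.70 and 1.998 FPKM in wild-type cortex. Its log2 fold change was 0.23 (SE 0.15), and the genotypes overlapped. Tgfb3 ranged over the 6 libraries from 1.62 to 3.05 FPKM and Tgfb1, the form made by microglia and vessels among other cells, from 0.717 to 1.18 FPKM, with log2 fold changes of 0.09 and 0.22. The value of Tgfb3 was -0.073 without wild-type replicate 1. Markers of microglia summed to 39.4 to 54.4 CPM in Tle4-/- cortex and 34.4 to 73.4 CPM in wild-type cortex. In a bulk sample, fewer cells of a type and less RNA per cell cannot be told apart. Inhbc and Inhbe, subunits known mainly from liver, did not exceed 6 counts in a library and were not tested.

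**Figure D2:**
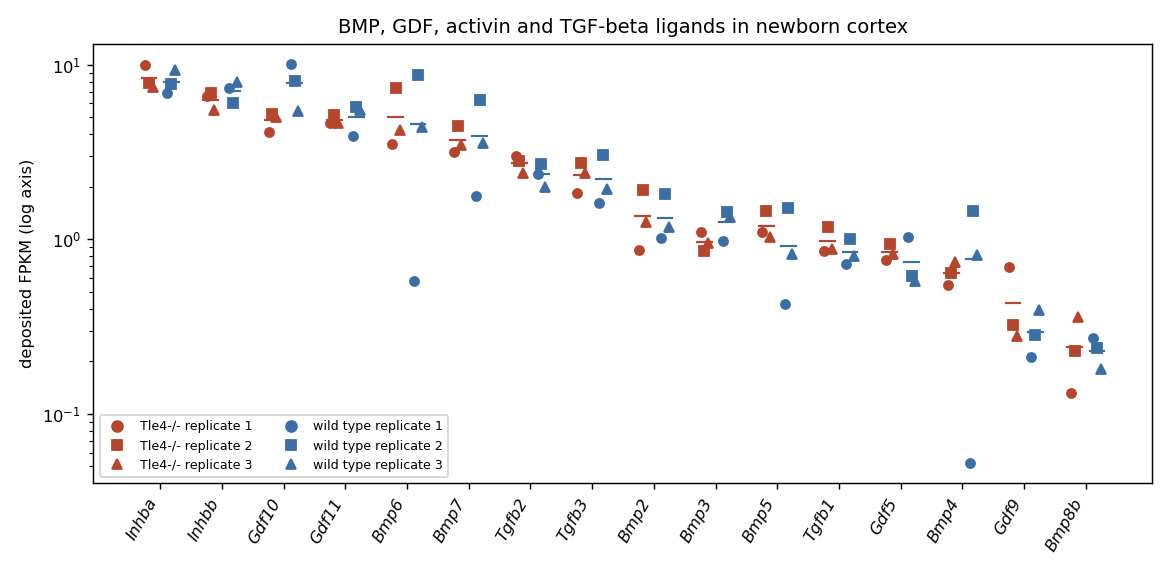
Deposited FPKM (log axis) of the 16 ligand genes with a mean of at least 10 counts, in each of 3 Tle4-/- and 3 wild-type libraries, ordered by mean FPKM, with a bar at each genotype's mean. Wild-type replicate 1 lies far below the other libraries for Bmp6 (0.580 FPKM) and Bmp4 (0.0521 FPKM), and at the top for Gdf10 (10.1 FPKM).

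Gdf10 (also called BMP3b, a ligand known from Bergmann glia of the cerebellum) was the third most abundant ligand by mean FPKM and had the smallest p of all members. It stood at 10.4, 13.0 and 12.8 CPM in Tle4-/- cortex, against 25.8, 19.6 and 13.7 CPM in wild-type cortex. The mutant libraries lay close together and just below the lowest wild-type library, while the wild-type libraries spread nearly 2-fold. The mean was 12.1 ± 1.43 CPM in Tle4-/- cortex and 19.7 ± 6.06 CPM in wild-type cortex (SD, n = 3 each), with a log2 fold change of -0.71 (SE 0.23, 95% interval -1.23 to -0.19). The unadjusted p was 0.0131 and the edgeR adjusted p was 0.9996, so the difference did not pass the threshold over all genes. Without wild-type replicate 1, which had the highest Gdf10 level, the log2 fold change was -0.46 (unadjusted p = 0.059 by edgeR). Leaving out any 1 library gave values from -0.91 to -0.46.

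The gene next to Gdf10 is also a member. Gdf2, which encodes BMP9, a ligand of the receptor ALK1 known from liver and blood, starts 5759 bases beyond the end of Gdf10 on chromosome 14. It had 0 counts in each Tle4-/- library, against 8, 2 and 6 counts in the wild-type libraries. Summed over a genotype, 16 wild-type counts against a floor of 3 mutant counts gave a ratio of 5.31 at these depths. The floor allows for counting error in the mutant sum only. The wild-type sum was taken as it stood, so the ratio is no lower bound on the difference. Wild-type replicate 1 held 8 of the 16 counts, and without it the ratio was 3.98. Gdf2 fell under the filter on low counts, and in the fit with no filter its unadjusted p was 0.00268 and its adjusted p 0.726 by edgeR. In the authors' deposited table, Gdf2 had a p of 0.000388 and an adjusted p of 0.115 by their comparison. There 0 of the 53 members had an adjusted p under 0.05, against 68 of all 23621 genes.

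The close relative of Gdf10 is Bmp3, which encodes a BMP family protein known to oppose BMP signalling through activin type II receptors. Bmp3 had 1.09, 0.855 and 0.956 FPKM in Tle4-/- cortex and 0.978, 1.44 and 1.34 FPKM in wild-type cortex. Wild-type replicate 1 lay within the mutant range, and the other wild-type libraries were higher (log2 fold change -0.35, SE 0.19, unadjusted p = 0.0981 by edgeR). Without wild-type replicate 1 the log2 fold change was -0.49 (unadjusted p = 0.0285, edgeR adjusted p = 0.954). Gdf9, a growth factor known from the oocyte, was low, at 0.697, 0.321 and 0.278 FPKM in Tle4-/- cortex and 0.211, 0.284 and 0.392 FPKM in wild-type cortex. Mutant replicate 1 alone lay above the rest for Gdf9, and its log2 fold change was 0.57 (SE 0.45).

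Several BMP ligands followed another pattern, which ran across libraries and not across genotypes. Bmp6 had 3.51, 7.39 and 4.22 FPKM in Tle4-/- cortex, against 0.580, 8.69 and 4.41 FPKM in wild-type cortex. Bmp4 had 0.546, 0.640 and 0.741 FPKM in Tle4-/- cortex, against 0.0521, 1.46 and 0.813 FPKM in wild-type cortex. Both ligands were lowest in wild-type replicate 1 and highest in wild-type replicate 2, with the mutants between. As counts, Bmp4 had 4 and Bmp6 had 28 in wild-type replicate 1, where the other libraries held 45 to 121 for Bmp4 and 182 to 453 for Bmp6.

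To separate such ligands, a gene with a mean of at least 10 counts was taken to have the meningeal pattern when its CPM in wild-type replicate 1 was under 0.5 of its lowest CPM in the other 5 libraries. This is a description of the libraries with no test. The rule was written with the meninges markers already known to be low in wild-type replicate 1. That those markers meet it was therefore fixed in advance and is no support for the name. Of 16 ligands with enough counts, 2 had it: Bmp4, at 0.0968 of the lowest other library, and Bmp6, at 0.167. Just outside lay Bmp5 at 0.525 and Bmp7 at 0.572, followed by Gdf9 at 0.780. Bmp15 had a ratio of 0, but its mean of 9.83 counts was under the minimum, so the rule did not cover this ligand. Among all members with enough counts, the co-receptor gene Tgfbr3 at 0.290 also met it, making 3 of 44, or 6.82%, against 1.44% of 16144 genes. All 15 meninges markers met the same ratio: Col1a1, a fibrillar collagen, had 753, 1470 and 964 counts in Tle4-/- cortex and 28, 2092 and 618 counts in wild-type cortex, and Dcn, the proteoglycan decorin, had 391, 638 and 380 counts in Tle4-/- cortex and 7, 887 and 283 counts in wild-type cortex. Among markers of other cells, 3 of 8 for choroid plexus (Kl, Kcnj13 and Aqp1) and 1 of 9 for microglia (Tmem119) met it, and 0 of 10 for endothelium and 0 of 8 for pericytes and mural cells. The choroid plexus markers did not move as a set. Ttr peaked at 1789 counts in mutant replicate 3 and did not exceed 5 elsewhere. Folr1, Clic6 and Otx2 were also highest in that library, while Kl, Kcnj13, Aqp1 and Prlr were not. The part of meninges or choroid plexus in the levels of Bmp4 and Bmp6 was not tested.

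Bmp7 and Bmp5 had the same lowest and highest library, with a smaller gap between them. Bmp7, a ligand of meninges and choroid plexus, had 3.14, 4.45 and 3.45 FPKM in Tle4-/- cortex and 1.77, 6.28 and 3.58 FPKM in wild-type cortex. Bmp5 ranged from 1.03 to 1.45 FPKM in Tle4-/- cortex and from 0.427 to 1.503 FPKM in wild-type cortex. Of its 4025 exonic bases, 1878 are shared with a gene on the other strand, Gm26903, so its reads may include those of that gene. For all 4 ligands the lowest and the highest library were both wild type. Their log2 fold changes had wide errors, at -0.24 for Bmp4 (SE 0.86), 0.39 for Bmp5 (SE 0.40), 0.17 for Bmp6 (SE 0.89) and -0.05 for Bmp7 (SE 0.41). Without wild-type replicate 1 they were -0.79, 0.06, -0.35 and -0.39, and 0 of these 4 ligands were called. For Bmp4 the unadjusted p was then 0.0403, with an edgeR adjusted p of 0.954. Without wild-type replicate 2, the highest library, Bmp5 was at 0.92 (unadjusted p = 0.0275, edgeR adjusted p = 0.940), and Bmp4, Bmp6 and Bmp7 were at 0.58, 1.02 and 0.46.

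**Figure D3:**
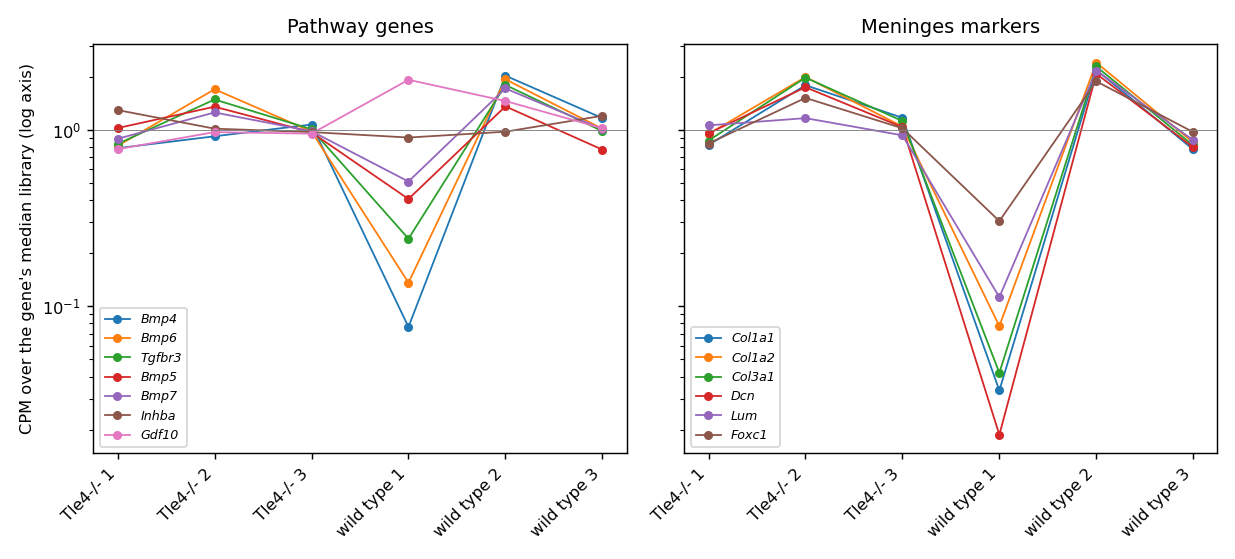
CPM of 7 pathway genes (left) and 6 meninges markers (right) in each library, divided by the gene's median over the 6 libraries (log axis), with 3 Tle4-/- libraries left of 3 wild-type libraries. Bmp4, Bmp6, Tgfbr3 and the markers drop in wild-type replicate 1 and peak in wild-type replicate 2, Bmp5 and Bmp7 drop less, Inhba stays level and Gdf10 is highest in wild-type replicate 1.

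The 250 bases before the RefSeq start of 3 ligand genes with different library patterns are shown, on GRCm38.p6 and in the direction of the gene: Bmp4, lowest in wild-type replicate 1, at chr14:46390670-46390919 on the minus strand; Gdf10, highest there, at chr14:33923337-33923586 on the plus strand; and Inhba, nearly level, at chr13:16011601-16011850 on the plus strand. Capitals mark CAGAC or its reverse complement GTCTG, a form of the Smad box.
Bmp4: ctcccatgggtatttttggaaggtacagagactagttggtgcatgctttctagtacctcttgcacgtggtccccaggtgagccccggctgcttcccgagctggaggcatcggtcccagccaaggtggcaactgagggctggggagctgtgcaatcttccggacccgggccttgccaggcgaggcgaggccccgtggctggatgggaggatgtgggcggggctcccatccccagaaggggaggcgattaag
Gdf10: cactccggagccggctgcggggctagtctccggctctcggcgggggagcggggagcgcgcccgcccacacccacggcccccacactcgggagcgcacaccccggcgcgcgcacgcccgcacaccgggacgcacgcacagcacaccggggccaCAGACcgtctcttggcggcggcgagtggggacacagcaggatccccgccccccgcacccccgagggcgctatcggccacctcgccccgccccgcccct
Inhba: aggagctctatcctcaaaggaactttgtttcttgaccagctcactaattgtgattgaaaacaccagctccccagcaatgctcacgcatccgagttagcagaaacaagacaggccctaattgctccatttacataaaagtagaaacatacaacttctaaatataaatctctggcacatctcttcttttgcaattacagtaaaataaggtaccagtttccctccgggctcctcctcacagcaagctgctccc
CAGAC was found once in the Gdf10 window and not in the other 2, and GGCGCC, a GC-rich BMP response motif and its own reverse complement, was in none of the 3. On both strands, CAGAC was in 42.2% and GGCGCC in 9.59% of 32851 promoter windows of this length. Windows were listed for 38 of the 53 members, 45 windows in all, of which 40% held CAGAC and 20% held GGCGCC, those of Bmpr1a, Bmpr2, Chrd, Id2 and Id4 among them. These matches describe letters in a window and not sites in use.

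The remaining BMP and GDF ligands were low. Bmp2, a ligand of dorsal and skeletal tissues, ranged over the 6 libraries from 0.864 to 1.92 FPKM and Gdf5, a joint growth factor, from 0.579 to 1.03 FPKM, with log2 fold changes of 0.03 and 0.19. The value of Gdf5 was 0.52 without wild-type replicate 1, and 936 of its 2320 exonic bases are shared with a gene on the other strand, Gm15557. Bmp8b, Gdf7, a roof plate ligand, and Bmp15, another oocyte factor, were tested with log2 fold changes of 0.07, 0.07 and 0.20 (SE 0.43, 0.48 and 0.84). Gdf7 was at -0.17 and Bmp15 at -0.37 when wild-type replicate 1 was left out. Gdf6, Bmp8a, Gdf15 and Bmp10 were under the filter, with at most 9, 7, 3 and 5 counts in a library. Of all 25 ligands, 18 were tested, 12 lay above 0 and 6 below.

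Of the receptors, Acvr1b had the highest level by FPKM. Acvr1b (ALK4), the type I receptor for activins, had 40.4, 32.1 and 36.7 FPKM in Tle4-/- cortex and 36.1, 39.2 and 40.9 FPKM in wild-type cortex. Tgfbr1 (ALK5), the TGF-beta type I receptor, had 33.3, 20.96 and 16.4 FPKM in Tle4-/- cortex and 18.3, 15.1 and 26.4 FPKM in wild-type cortex. Acvr1b varied little across libraries, whereas Tgfbr1 varied by up to about 2-fold within a genotype (log2 fold changes -0.07, SE 0.11, and 0.25, SE 0.32). Bmpr1a (ALK3), the main BMP type I receptor of neural progenitors, had 10.04, 13.8 and 10.9 FPKM in Tle4-/- cortex and 10.6, 11.8 and 12.5 FPKM in wild-type cortex, with a log2 fold change of 0.00 (SE 0.13, 95% interval -0.30 to 0.30).

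Acvr1 (ALK2), a further BMP type I receptor, lay at 9.30 to 13.4 FPKM over the 6 libraries, while Bmpr1b and Acvr1c stayed between 0.293 and 1.73 FPKM. Acvrl1 (ALK1), the endothelial type I receptor that binds BMP9, had 1.03, 0.894 and 0.851 FPKM in Tle4-/- cortex and 0.535, 0.917 and 0.541 FPKM in wild-type cortex. Wild-type replicate 2 lay inside the mutant range and the other wild types below it (log2 fold change 0.49, SE 0.26, unadjusted p = 0.0878 by edgeR). Without wild-type replicate 2 the value was 0.78 (unadjusted p = 0.0127, edgeR adjusted p = 0.846), and the lowest value with 1 library left out was 0.37. Endothelial markers summed to 205 to 245 CPM in Tle4-/- cortex and 179 to 292 CPM in wild-type cortex, and their part in the Acvrl1 level was not tested.

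Of the type II receptors, Acvr2a, which binds activins and BMPs, had 16.2, 21.9 and 24.3 FPKM in Tle4-/- cortex and 22.2, 26.3 and 19.6 FPKM in wild-type cortex. Bmpr2, the BMP type II receptor, had 16.1, 15.9 and 14.2 FPKM in Tle4-/- cortex and 12.4, 16.3 and 15.6 FPKM in wild-type cortex. The genotypes overlapped for both, with log2 fold changes of -0.11 (SE 0.16) and 0.07 (SE 0.11). Acvr2b, the second activin type II receptor, had 3.56, 4.85 and 5.13 FPKM in Tle4-/- cortex and 6.05, 5.35 and 5.39 FPKM in wild-type cortex. Each mutant library was lower than each wild-type library, yet the log2 fold change of -0.30 (SE 0.19) missed the threshold (unadjusted p = 0.157 by edgeR).

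Tgfbr2, the TGF-beta type II receptor, ranged from 2.36 to 5.74 FPKM and had both extremes in wild-type cortex, in replicates 1 and 2. Its log2 fold change was 0.01 (SE 0.31), and -0.22 without wild-type replicate 1. Tgfbr3, the co-receptor betaglycan, had 0.828, 1.48 and 0.998 FPKM in Tle4-/- cortex and 0.237, 1.85 and 0.983 FPKM in wild-type cortex. Its log2 fold change was 0.13 (SE 0.66), and -0.33 without wild-type replicate 1. Tgfbr3 shares 297 exonic bases on the same strand with another gene of the table, so its reads may be divided.

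**Figure D4:**
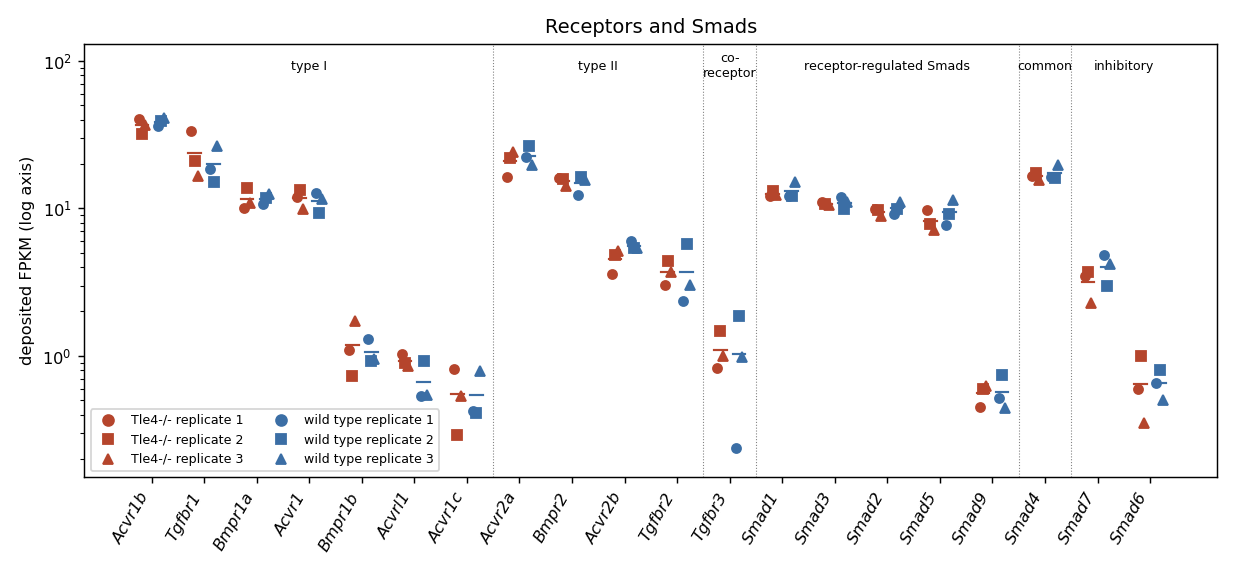
Deposited FPKM (log axis) of 12 receptor and co-receptor genes and 8 Smad genes in each of 3 Tle4-/- and 3 wild-type libraries, grouped by role, with a bar at each genotype's mean. Acvr1b is the highest receptor, the genotypes overlap for all genes but Acvr2b, and Tgfbr3 is low in wild-type replicate 1.

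The main Smads varied little. Smad4, the common partner, had 16.6, 17.3 and 15.4 FPKM in Tle4-/- cortex and 16.4, 16.1 and 19.6 FPKM in wild-type cortex. Smad1, of the BMP branch, had 12.2, 13.1 and 12.2 FPKM in Tle4-/- cortex and 12.2, 12.1 and 15.05 FPKM in wild-type cortex. Wild-type replicate 3 was the highest library for both, and the other 5 lay close together. Smad3, of the activin and TGF-beta branch, had 11.0, 10.8 and 10.5 FPKM in Tle4-/- cortex and 11.9, 9.88 and 11.1 FPKM in wild-type cortex. Smad2 had 9.88, 9.69 and 8.90 FPKM in Tle4-/- cortex and 9.19, 9.91 and 11.1 FPKM in wild-type cortex. The genotypes overlapped for all 4, and their log2 fold changes lay between -0.07 and -0.01 with SE of 0.11 to 0.12.

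Smad5, the other main BMP-branch Smad, ranged from 7.14 to 11.3 FPKM and had a log2 fold change of -0.18 (SE 0.16), while Smad9 ranged from 0.440 to 0.741 FPKM. The inhibitory Smad7, which blocks type I receptors and is itself induced by the pathway, had 3.46, 3.70 and 2.30 FPKM in Tle4-/- cortex and 4.79, 2.98 and 4.23 FPKM in wild-type cortex. The lowest library was mutant replicate 3 and the highest wild-type replicate 1, with overlap between (log2 fold change -0.34, SE 0.23, unadjusted p = 0.181 by edgeR). It depended on single libraries, at -0.17 without wild-type replicate 1, -0.16 without mutant replicate 3 and -0.52 without wild-type replicate 2 (unadjusted p = 0.507, 0.496 and 0.0385, edgeR adjusted p = 0.963, 1.0 and 0.947). Smad6, the inhibitory Smad of the BMP branch, was low, at 0.594, 0.992 and 0.351 FPKM in Tle4-/- cortex and 0.651, 0.800 and 0.503 FPKM in wild-type cortex, with a log2 fold change of -0.0022 (SE 0.39).

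The Id genes spanned a wide range of levels. Id2, which in newborn cortex is known from upper-layer and other neurons, had 240, 319 and 323 FPKM in Tle4-/- cortex and 294, 219 and 159 FPKM in wild-type cortex, above each other member. Wild-type replicates 2 and 3 lay below the mutants and wild-type replicate 1 within their range. The log2 fold change was 0.40 (SE 0.24, 95% interval -0.16 to 0.96, unadjusted p = 0.134 by edgeR). Without wild-type replicate 1 it was 0.67 (unadjusted p = 0.00477, edgeR adjusted p = 0.708), and without wild-type replicate 3 it was 0.21 (unadjusted p = 0.310 by edgeR). Either library moved the value by more than 1.5 times, in opposite directions, and the gene was not called in any of these fits.

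Id4, an Id gene of neural progenitors and astrocytes, had 26.5, 26.1 and 23.5 FPKM in Tle4-/- cortex and 23.7, 33.6 and 28.1 FPKM in wild-type cortex. Id3, a BMP target of vessels and meninges as well as progenitors, had 7.08, 10.1 and 8.40 FPKM in Tle4-/- cortex and 6.99, 10.5 and 6.09 FPKM in wild-type cortex. Id1, a further BMP target, ranged from 4.58 to 6.78 FPKM in Tle4-/- cortex and from 4.67 to 7.64 FPKM in wild-type cortex. Each was highest in wild-type replicate 2, the library with the highest summed meninges markers, but none dropped in wild-type replicate 1 below 0.5 of its lowest other library. The log2 fold changes were -0.15 (SE 0.13), 0.13 (SE 0.22) and -0.0045 (SE 0.23), with overlap in each case. Markers of radial glia summed to 1492 to 1750 CPM in Tle4-/- cortex and 1167 to 1532 CPM in wild-type cortex, and their part in the Id levels was not tested.

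**Figure D5:**
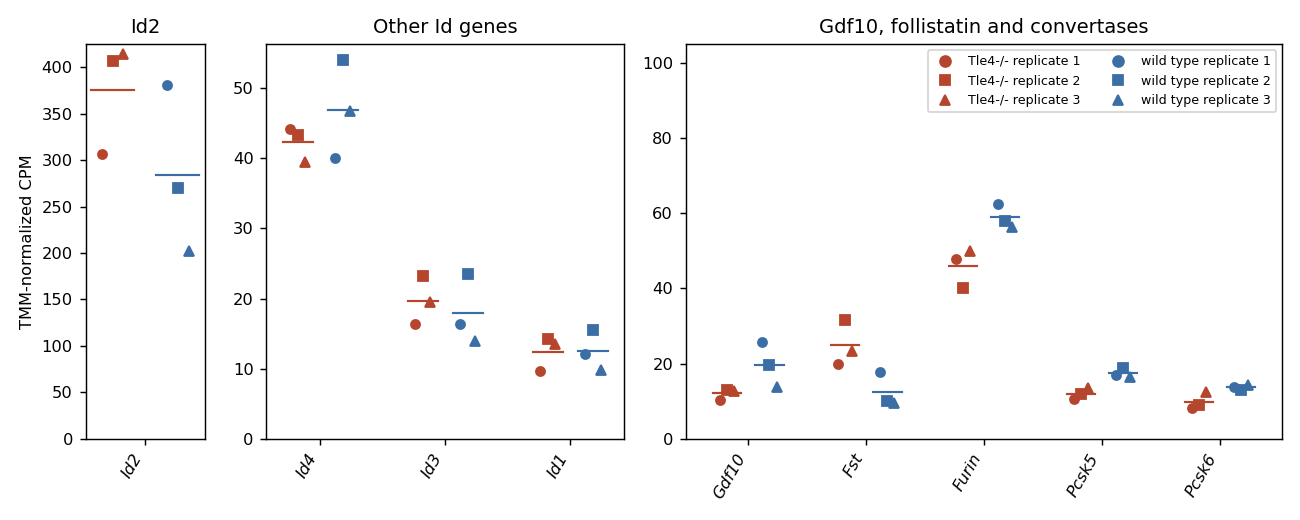
TMM-normalized CPM (linear axes from 0) of the Id genes, Gdf10, follistatin (Fst) and 3 proprotein convertases in each of 3 Tle4-/- and 3 wild-type libraries, with a bar at each genotype's mean. The mutant libraries of Gdf10 and the convertases lie below those of wild type and the mutant libraries of Fst above, while the genotypes overlap for all 4 Id genes.

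Both secreted BMP antagonists among the members were expressed. Nog (Noggin), which binds BMPs and keeps them from their receptors, had 5.99, 5.54 and 4.39 FPKM in Tle4-/- cortex and 4.60, 4.58 and 4.72 FPKM in wild-type cortex. Chrd (Chordin) had 2.68, 3.28 and 2.98 FPKM in Tle4-/- cortex and 3.80, 3.31 and 3.40 FPKM in wild-type cortex. In FPKM each mutant library of Chrd lay below each wild-type library by a narrow gap, while in CPM the genotypes overlapped (log2 fold change -0.22, SE 0.14, and -0.14 without wild-type replicate 1). For Nog the genotypes overlapped (log2 fold change 0.21, SE 0.19). Bmp1, a metalloprotease that cleaves Chordin and procollagens and is no BMP ligand, had 20.4, 23.8 and 22.6 FPKM in Tle4-/- cortex and 22.6, 20.1 and 21.3 FPKM in wild-type cortex. Bmp2k, a kinase named for its induction by BMP2, had 23.7, 23.1 and 24.5 CPM in Tle4-/- cortex and 24.6, 24.9 and 29.1 CPM in wild-type cortex. Its genotypes were separated by a narrow gap in CPM and overlapped in FPKM (log2 fold change -0.14, SE 0.13), and 1185 of its exonic bases are shared with a gene on the other strand, Paqr3.

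Other genes of the pathway were taken from 6 lists by role: extracellular modulators, further ligands and receptors, latency and processing, co-receptors, intracellular regulators, and transcriptional targets. Of 85 genes named, 80 were in the table and 71 were tested. By edgeR 1 of the 71 fell and 0 rose, or 1.41% called, against the 0.111% over all genes given above. The gene that fell was Ctgf, a secreted matrix protein induced by TGF-beta and a marker of the subplate. Ctgf had 6.03, 9.26 and 6.31 CPM in Tle4-/- cortex and 22.97, 23.5 and 22.8 CPM in wild-type cortex (log2 fold change -1.68, edgeR SE of 0.20, adjusted p = 0.0145). Its call was lost without mutant replicates 1 and 3 and wild-type replicates 2 and 3 (edgeR adjusted p = 0.0567, 0.110, 0.0506 and 0.0748), while its log2 fold change stayed between -1.90 and -1.56 with each library left out. Of its exonic bases, 665 are shared with a gene on the other strand. At an unadjusted p under 0.05 there were 7 of the 71, or 9.86%, with 2 higher and 5 lower, against 3.45% of all genes, with 1.71% higher and 1.73% lower. Genotypes did not overlap in 11 of the 71, or 15.5%, against the 7.93% of all genes, of which 3 were higher and 8 lower. The share called rests on 1 gene, and the lists were chosen with earlier results of these data known. Whether these genes differ more often than other genes was not tested.

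Among 16 extracellular modulators, follistatin (Fst), which binds and neutralises activins, had the smallest p. Fst stood at 19.9, 31.6 and 23.5 CPM in Tle4-/- cortex, against 17.7, 10.1 and 9.46 CPM in wild-type cortex. Each mutant library was above each wild-type library, and wild-type replicate 1 came close to the lowest mutant. The fold was 2.01 (log2 fold change 1.0, SE 0.27, unadjusted p = 0.00531), but the edgeR adjusted p was 0.909. Without wild-type replicate 1 the log2 fold change was 1.35, with an edgeR adjusted p of 0.126, and over all alternatives the adjusted p ran from 0.0617 to 1.0. Vwc2, a BMP antagonist of the nervous system, had 4.58, 3.24 and 4.22 CPM in Tle4-/- cortex and 5.70, 4.62 and 5.21 CPM in wild-type cortex (log2 fold change -0.36, SE 0.23).

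In the list for latency and processing, 4 of 16 genes tested had an unadjusted p under 0.05 by edgeR, where the share over all genes was 3.45%. The list was chosen with earlier results of these data known. Of the 4, 1 was higher in the mutant (Fbn1, the microfibril protein fibrillin-1, log2 fold change 0.29, SE 0.13) and 3 were lower. Fbn1 was named after its values were seen. The 3 lower genes were proprotein convertases, enzymes that cut the precursors of TGF-beta family ligands. Pcsk5 had 10.5, 11.9 and 13.6 CPM in Tle4-/- cortex, against 17.0, 18.7 and 16.4 CPM in wild-type cortex (log2 fold change -0.53, SE 0.16, unadjusted p = 0.00927 by edgeR). Furin had 47.9, 40.1 and 50.01 CPM in Tle4-/- cortex, against 62.4, 57.9 and 56.3 CPM in wild-type cortex (-0.36, SE 0.12, unadjusted p = 0.0144 by edgeR). Pcsk6, which was named after its values were seen, had 8.09, 8.90 and 12.4 CPM in Tle4-/- cortex, against 13.6, 13.0 and 14.2 CPM in wild-type cortex (-0.48, SE 0.20, unadjusted p = 0.0374 by edgeR). Genotypes did not overlap for any of these enzymes, as for 7.93% of all genes tested. Of the 3, 0 were called, with edgeR adjusted p of 0.9996 each. Pcsk5 and Tle4 both lie on chromosome 19, with 2.83 Mb between their nearest ends.

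In the remaining lists no gene passed the threshold. Among further ligands and receptors, Mstn, the muscle growth inhibitor myostatin, had 1.36, 1.94 and 1.56 CPM in Tle4-/- cortex and 1.22, 0.987 and 0.430 CPM in wild-type cortex (log2 fold change 0.87, SE 0.41), and Amhr2, the receptor for anti-Müllerian hormone, had 1.31, 0.837 and 1.41 CPM in Tle4-/- cortex and 1.02, 0.673 and 0.591 CPM in wild-type cortex. Of the co-receptors, Rgma, a repulsive guidance molecule that also binds BMPs, had 249, 337 and 340 CPM in Tle4-/- cortex and 315, 239 and 242 CPM in wild-type cortex, and its relative Rgmb had 63.4, 63.5 and 65.9 CPM in Tle4-/- cortex and 72.5, 67.1 and 77.7 CPM in wild-type cortex. The mutant libraries of Mstn were above and those of Rgmb below all wild-type libraries, and the other pair overlapped. Among regulators inside the cell, Smurf1, a ubiquitin ligase that removes BMP-branch Smads, had 107, 121 and 114 CPM in Tle4-/- cortex and 129, 127 and 126 CPM in wild-type cortex (log2 fold change -0.16, SE 0.09). Tgfbrap1, a receptor-associated protein, had 93.2, 96.6 and 53.5 CPM in Tle4-/- cortex and 98.3, 95.4 and 115 CPM in wild-type cortex. Among transcriptional targets beside Ctgf, Dlx5, a distal-less factor that is also a gene of interneurons and the ventral forebrain, had 12.4, 14.8 and 12.3 CPM in Tle4-/- cortex and 15.7, 15.7 and 21.3 CPM in wild-type cortex (log2 fold change -0.42, SE 0.18). Markers of striatum, a neighbour in dissection, summed to 149 to 198 CPM in Tle4-/- cortex and 198 to 289 CPM in wild-type cortex, and their part in the lower values of Gdf10, Dlx5 and the convertases was not tested.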

How the data were processed

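Cortex RNA was sequenced from 3 Tle4-/- and 3 wild-type samples. The submitters' processing notes name the builds GRCm38.p4 and mm10, HISAT2 2.0.4, edgeR and StringTie, with no counting program, annotation release or strand setting. The authors deposited 1 table with a count and an FPKM for each gene and library. It also holds a p-value, raw and adjusted, of the authors' comparison per gene, as named per the file headers. FPKM was a rescaled count: for all 13814 genes with at least 20 counts in each library, FPKM per count agreed between libraries within 1%. With strand use unknown, reads of overlapping genes cannot be told apart, and 14 members share exonic bases with another gene in GENCODE M21. Promoter sequences are from RefSeq on GRCm38.p6.

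The count test was the quasi-likelihood test of edgeR 4.0.16 (R 4.3.3) with robust dispersion, TMM scaling and filterByExpr, 2-sided, over all genes. Benjamini-Hochberg adjusted p under 0.05 was called. Log2 fold changes are Tle4-/- over wild type, each SE is their size over the square root of F, and each 95% interval uses the t quantile of the total degrees of freedom. FPKM served for levels and for some descriptions of overlap between genotypes, and no fit used it. The counts of genes whose genotypes did not overlap used CPM. On simulated data for 16274 genes with 200 changed, the test made 173 calls, of which 10 were false, and recovered 67% of 2-fold and 96% of 4-fold changes. The simulation gave each gene the trended dispersion, changed only genes above a minimum level and set no library apart. These shares are therefore a check of the code and not the power for the members, many of which varied more between libraries. Alternatives used DESeq2 1.42.0, limma-voom (limma 3.58.1), other filters, a replicate block, no X, Y or mitochondrial genes, a meninges score as a covariate and each library left out.

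Values in every library are given for the 10 members with the smallest p, ligands with the meningeal pattern and up to 3 members of each role with the highest mean FPKM, and for the 2 genes of each other list with the smallest p. Tle4, Xist, Ddx3y and meninges markers are given as checks. The members, lists and rules were chosen with earlier results of these data known.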

Additional observations from a re-analysis of the deposited data

How the results depend on the processing

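Pathway members called numbered 0 under each alternative tried, and other pathway genes called were 1 in each but those named here. With a replicate block, 9 genes were called in place of 18, and 0 other pathway genes in place of 1. The DESeq2 Wald test called 58 genes, and 10 were called without X, Y and mitochondrial rows. Leaving out 1 library at a time, 8 to 19 genes were called (8 without Tle4-/- replicate 3), 0 to 1 other pathway genes, 0 members, and 2 to 3 ligands had the meningeal pattern, which cannot be counted without wild-type replicate 1. Same-numbered libraries shared only a number: their deviations from the genotype means correlated at -0.06, 0.10 and -0.02 across genes, and the block changed no call of a member. The cause of these shifts was not tested.

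The log2 fold changes of members near 0 changed sign in some fits, none of them called. With the DESeq2 Wald test it was -0.00055 for Bmpr1a. With DESeq2 size factors it was -0.00052 for Bmpr1a. With limma-voom it was 0.61 for Bmp4, 0.079 for Bmp7, -0.0076 for Bmpr1a. With the meninges covariate it was -0.082 for Bmp6, -0.040 for Bmpr1a, 0.059 for Smad3, -0.13 for Tgfbr3. With no filter beyond 1 count it was 0.00092 for Smad6. With a replicate block it was 0.28 for Bmp4, 0.091 for Bmp7, -0.0059 for Bmpr1a. With each library left out in turn, the values that crossed 0 ran from -0.15 to 0.010 for Acvr1b, -0.24 to 0.042 for Acvr2a, -0.79 to 0.58 for Bmp4, -0.35 to 1.02 for Bmp6, -0.39 to 0.46 for Bmp7, -0.14 to 0.10 for Bmpr1a, -0.024 to 0.13 for Bmpr2, -0.20 to 0.025 for Gdf11, -0.017 to 0.38 for Id3, -0.045 to 0.22 for Inhba, -0.12 to 0.061 for Smad1, -0.12 to 0.0077 for Smad2, -0.094 to 0.068 for Smad3, -0.13 to 0.035 for Smad4, -0.44 to 0.29 for Smad6, -0.080 to 0.51 for Tgfbr1, -0.33 to 0.86 for Tgfbr3.

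Among members given more briefly, the sign also changed in at least 1 fit for Acvr1, Acvr1c, Bmp15, Bmp2, Bmp8b, Bmpr1b, Gdf7, Id1, Smad9, Tgfb3 and Tgfbr2. The filter on low counts kept 7 members from being tested.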
